A study of Homo sapiens with 12 samples.

Results

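The comparison described here is that of SkMel28 human melanoma cells with and without induction of a short hairpin RNA against MITF. Its members are 6 of the 12 libraries of the series, taken by their line and dose in the sample names, and all 12616 genes of the normalised table, spike-in RNAs set aside. The 3 control libraries came from cells given 0 µg/ml doxycycline (Dox) and the 3 Dox libraries from cells given 1 µg/ml Dox, both for 8 days with fresh medium every other day. All 6 come from the same SkMel28 line carrying the inducible hairpin, which the submitters received from another laboratory. No SkMel28 cells given Dox without the hairpin are among the libraries, so an effect of the drug and an effect of the hairpin cannot be told apart. MeWo, a second melanoma line with the same hairpin, the same doses and the same time, entered the fit of the spread of every gene and the test of a difference between lines, and its own changes are otherwise not described. RNA was read from the 3′ ends of polyadenylated transcripts by QuantSeq, so that values are compared within a gene and were not scaled by length. Only RNA of high integrity was taken for sequencing.

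MITF is the basic helix-loop-helix leucine zipper factor that specifies the melanocyte lineage. It binds E-box and M-box elements at genes for pigment synthesis, the melanosome, the lysosome, survival and cell division, and melanomas with little MITF are known for slow division, an invasive phenotype and expression of neural crest or mesenchymal genes. Its relatives TFEB and TFE3 bind similar elements and control lysosomal genes, under the kinase complex mTORC1.

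The SkMel28 libraries held 2568190 to 3410550 reads, of which spike-ins took 6.96 to 8.07% in control and 7.76 to 8.55% in Dox libraries, and 12195 to 12339 genes had at least 1 read. Values are reads per effective library size times 1000000, given for the libraries in the order 1, 2 and 3. Changes are differences in log2(value + 1), Dox minus control, with the standard error (SE) from limma, and the threshold for a call was an adjusted p of 0.05. All 8 markers of the melanocytic lineage chosen for the purpose were listed, at a summed value of 11422 to 12789 in control and 7665 to 8052 in Dox libraries. Of these markers 2 were called higher and 3 lower, and PMEL, whose values are given below, made up most of the fall of the sum. Of 6 fibroblast markers 2 were listed (summed values 10.9 to 13.3 in control, 6.04 to 8.91 with Dox), and COL1A1, COL3A1, PDGFRB and THY1 were not. None of 4 endothelial markers was listed. Of the keratinocyte markers KRT10 alone was listed, and of the leukocyte markers CD68 alone, which also codes for a lysosomal protein of other cells and fell from 78.2, 101 and 80.9 to 19.6, 18.7 and 23 (log2 change −2.03, SE 0.23, adjusted p 1.71e-05).

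The target was lowered in part. MITF (chromosome 3, 69739456 to 69968336, + strand, hg38) stood at 861, 739 and 792 in the control and at 575, 578 and 552 in the Dox libraries (log2 change −0.49, SE 0.11, adjusted p 0.00705). The groups did not overlap, and the call depended on the mean-variance trend, without which it was lost (−0.49).

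Across the genome 1378 of 12616 genes were called (10.9%). Of these, 742 were higher (5.88%) and 636 lower (5.04%). The number called was 2042 without MeWo Dox library 1, whose spread enters the fit, and 784 to 1043 without any 1 SkMel28 library. With all 12 libraries and the deposited scaling, 838 of the called genes (60.8%) changed by less than 2-fold. The median size of a called change was 0.88 on the log2 scale. That majority was not kept without any 1 SkMel28 library, where 453 to 526 genes were called at 2-fold, nor on spike-in scaling (522 of 927). Rises of at least 2-fold made up 2.75% of all genes and falls of that size 1.53%. Scaling to the spike-ins in place of the deposited scaling moved the median gene by −0.08 and turned the split from 53.8% higher among called genes to 42.5%.

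The genes were sorted into 62 functional classes, which hold 3063 genes and 452 of the called ones. The share of members called ranged from 0% of the cytosolic ribosomal proteins to 60.6% of the neural crest and glial genes, beside 10.9% of all genes. It was at least 2 times the background in 26 classes and under 0.5 times the background in 8. Where the number of called members of a class moved by over 1.5 times when 1 SkMel28 library was left out, its range over the 6 libraries is given as the number on leaving out, and a change of that size on spike-in scaling is given likewise. In each called gene whose 6 values are given below, the Dox libraries lay beyond all 3 controls. The same held for 1366 of the 1378 called genes and for 4071 of all 12616, so it adds little to a call. The class medians had the same sign in all 3 Dox libraries for 53 of the classes.

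**Figure D1:**
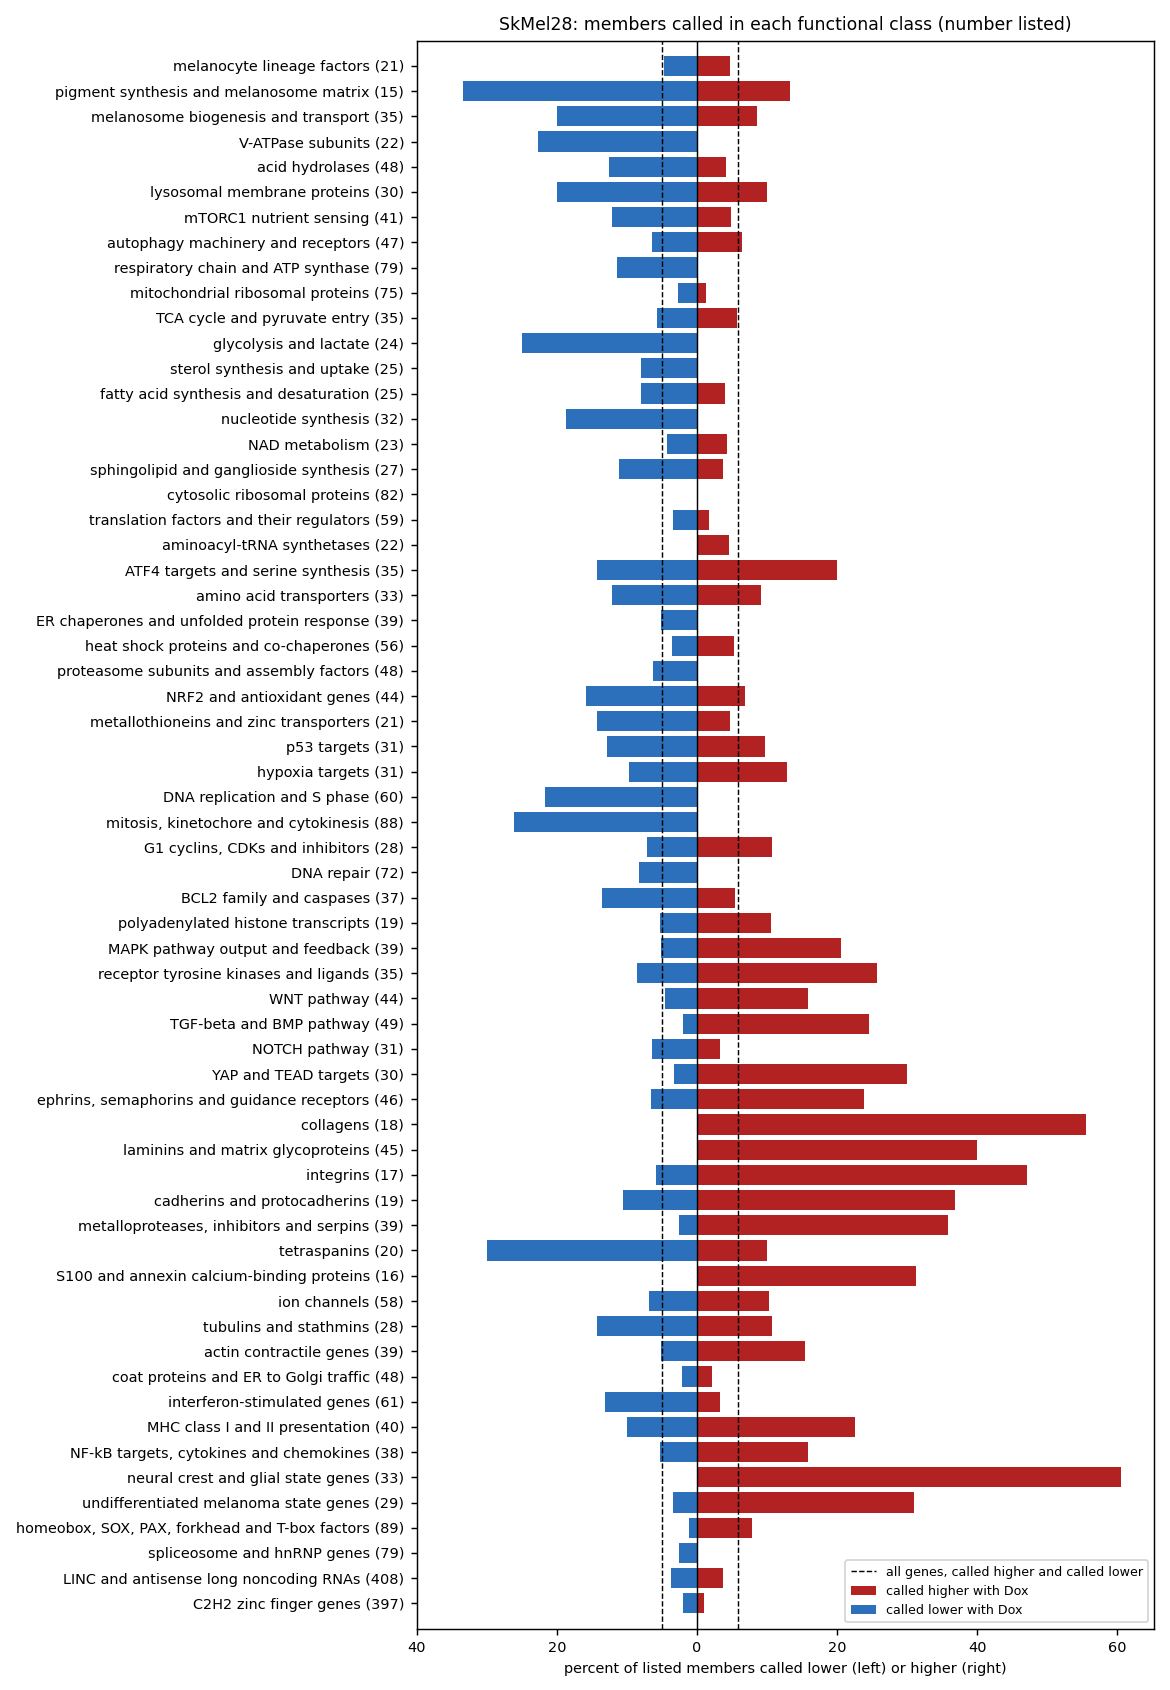
Percent of the listed members of each functional class called higher (right, red) or lower (left, blue) with Dox in SkMel28, with the number of listed members in parentheses and dashed lines at the shares of all genes (5.88% higher, 5.04% lower). Matrix, adhesion and neural crest classes reach furthest to the right, pigment, tetraspanin and mitosis classes furthest to the left, and the cytosolic ribosomal proteins have no bar.

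**Figure D2:**
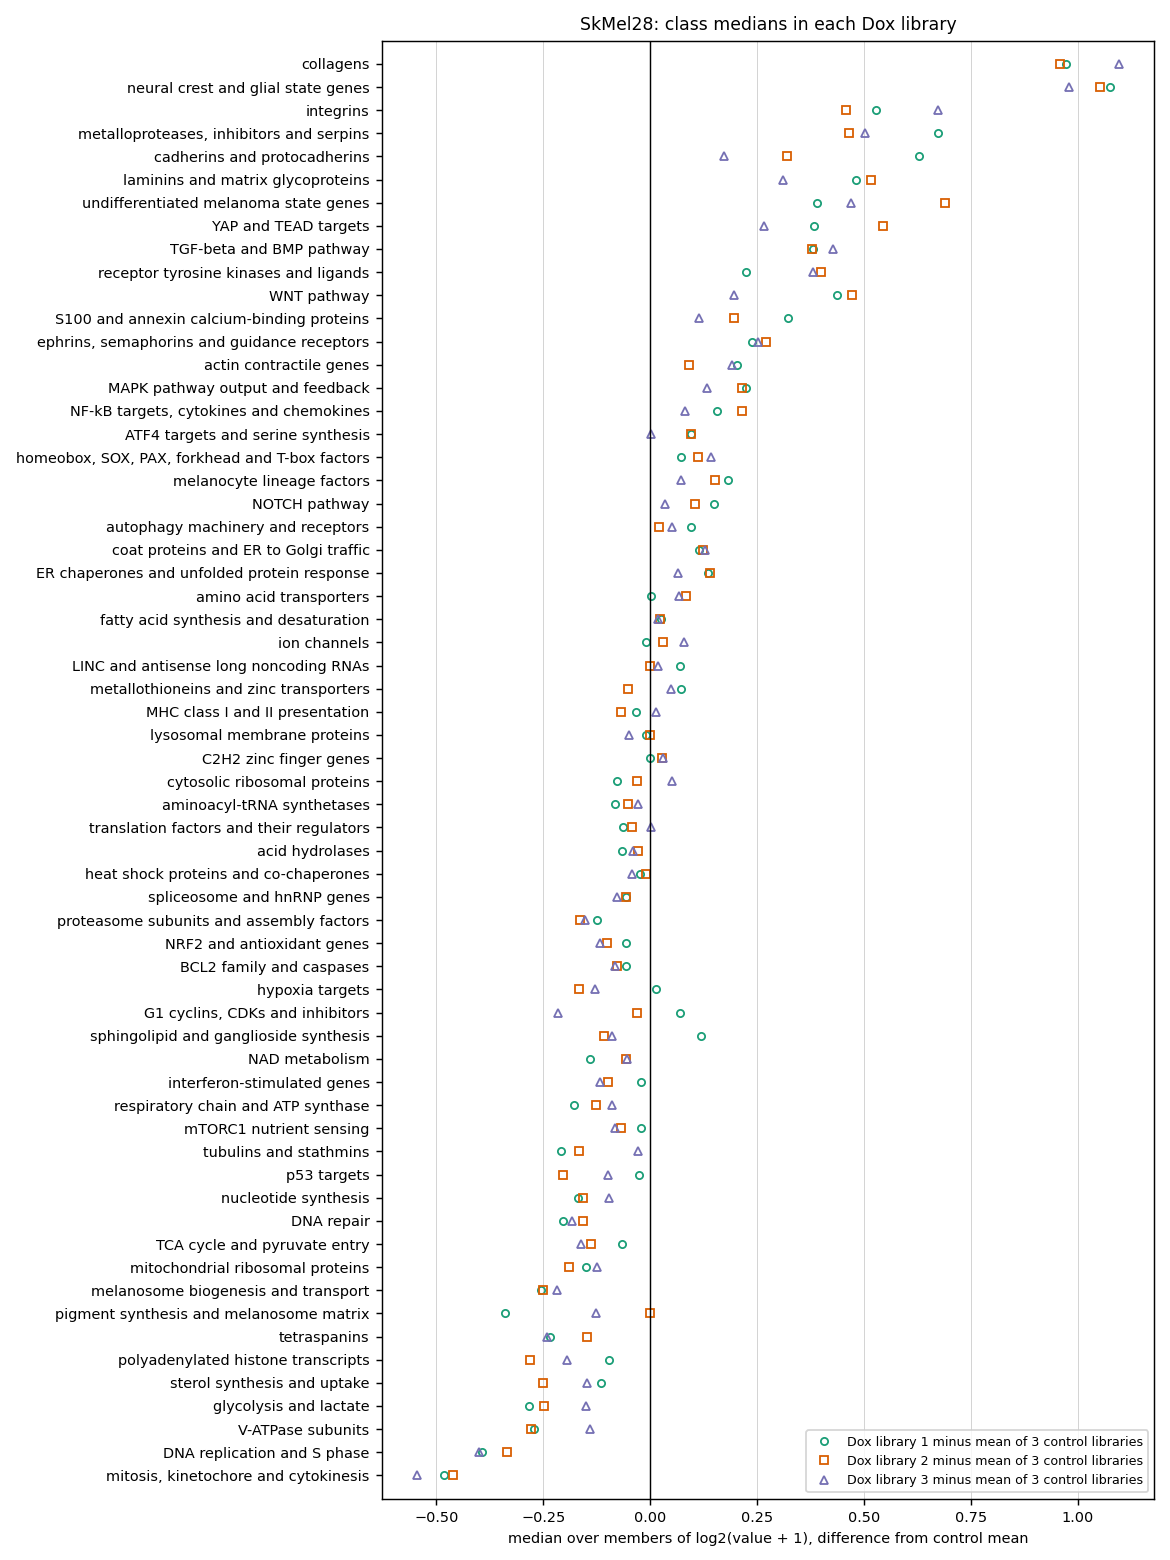
Median over the members of each class of log2(value + 1) in each Dox library minus the mean of the 3 control libraries, classes ordered by their fitted median. The 3 Dox libraries (circle, square, triangle) lie between 0.96 and 1.10 for collagens and between −0.54 and −0.46 for mitosis genes.

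Pigment cell genes fell unevenly. Among genes of pigment synthesis and the melanosome matrix, 2 rose and 5 fell of 15 listed (46.7% called), with a median log2 change of −0.20. TRPM1, a melanocyte cation channel gene whose transcript hosts a microRNA, fell most, from 51.8, 57.8 and 51.7 to 15.1, 12 and 10.9 (log2 change −2.01, SE 0.16, adjusted p 2.67e-07). SLC45A2, a melanosomal transporter, fell from 425, 402 and 445 to 128, 137 and 151 (log2 change −1.61, SE 0.13, adjusted p 4.99e-07). GPNMB, a melanosomal glycoprotein, rose from 462, 448 and 423 to 697, 668 and 673 (log2 change 0.61, SE 0.11, adjusted p 0.0012), and its call was lost with spike-in scaling (0.51). TYR and DCT, enzymes of melanin synthesis, were not called: TYR stood at 526, 359.5 and 429 and at 523, 525 and 529 with Dox, and DCT at 1238, 945 and 1097 and 858, 904 and 995. Without the 8 genes whose change was known beforehand the class held 7 members, and the 2 called ones rose, so its falls are those of genes whose direction was known when the list was written. Of the lineage factors, 21 listed, MITF was the single one called lower and TFAP2A, a neural crest and melanocyte factor, the single one called higher, from 141, 155 and 149.8 to 311, 296 and 299 (log2 change 1.02, SE 0.12, adjusted p 2.66e-05).

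The machinery that builds and moves melanosomes changed in both directions: 3 rose and 7 fell of 35 listed (28.6% called), with a median log2 change of −0.20. RAB27A, the GTPase that tethers melanosomes to the motor myosin Va, fell from 246, 219 and 251 to 68, 67.5 and 67.4 (log2 change −1.80, SE 0.14, adjusted p 2.5e-07). The sorting complex genes BLOC1S2 (−1.20) and HPS4 (−1.09) fell with it, HPS4 from 298, 277 and 315 to 145, 139.7 and 131. Such genes did not fall as a group: HPS5 was called higher (0.75). BLOC1S1 (−0.13), BLOC1S3 (−0.41) and HPS3 (−0.39) were not called. KIF13A, a kinesin that carries cargo from endosomes to melanosomes, rose from 41.2, 34.3 and 39.1 to 107, 99.6 and 87 (log2 change 1.33, SE 0.14, adjusted p 8.79e-06). RAB27A overlaps the listed genes PIGBOS1 on its own strand and PIGB on the other, and the tool and strand used for counting are not given in the sources used here.

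MITF and its relatives bind the letters TCACGTG or TCATGTG, the first of which holds the E-box CACGTG. Promoter windows from RefSeq (GRCh38.p14, 250 bases before to 50 after the start) matched 10108 of the 12616 genes (80.1%). TCACGTG or TCATGTG on either strand occurred in 7.71% of all matched windows, in 6.71% of 596 windows of genes called higher and in 7.68% of those not called. For genes called lower 504 of 636 had a window (79.2%), under the limit of 80% set for giving a share, so none is given. Among classes with a window for at least 80% of members, the letters stood in 6 of 13 windows of pigment genes, 7 of 24 of lysosomal membrane proteins, 0 of 36 of matrix glycoproteins, 0 of 31 of TCA cycle genes and 0 of 42 of proteasome genes, classes chosen after the shares were seen. Other such classes had them in 10 of 48 windows of translation factors, 8 of 52 of DNA replication genes and 3 of 39 of autophagy genes. A match is only a description of letters. Distances below are to the start that RefSeq gives for the window. The stretches of TSPAN10, CD63, GPNMB and SCARB2 lie inside the wider loci that GENCODE gives these genes. The following upstream stretches, 5′ to 3′ on the strand of the gene, are shown because they place the same letters beside genes that fell and genes that rose. The motif at the stated distance is in capitals, CACATGA being TCATGTG read on the opposite strand, and the CLCN7 stretch holds a second TCACGTG in lower case, 48 bases before the start:
GPR143 (called lower, −0.62, motif start 61 bases before the gene start, chrX:9765875-9765935, − strand): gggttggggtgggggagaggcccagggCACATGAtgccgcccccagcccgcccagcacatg
TSPAN10 (called lower, −2.13, motif start 80 bases before the gene start, chr17:81642198-81642258, + strand): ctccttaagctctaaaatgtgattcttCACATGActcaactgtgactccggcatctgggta
CD63 (called lower, −0.71, motif start 102 bases before the gene start, chr12:55729078-55729138, − strand): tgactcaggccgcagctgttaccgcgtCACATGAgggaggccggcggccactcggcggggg
BCL2A1 (called lower, −1.64, motif start 26 bases before the gene start, chr15:79971197-79971249, − strand): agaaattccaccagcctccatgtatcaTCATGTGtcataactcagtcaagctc
CLCN7 (called lower, −0.82, motif start 28 bases before the gene start, chr16:1475029-1475083, − strand): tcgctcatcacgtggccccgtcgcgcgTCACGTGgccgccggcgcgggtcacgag
GPNMB (called higher, 0.61, motif start 62 bases before the gene start, chr7:23246686-23246746, + strand): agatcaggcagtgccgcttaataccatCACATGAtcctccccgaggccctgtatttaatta
SCARB2 (called higher, 0.91, motif start 113 bases before the gene start, chr4:76213904-76213964, − strand): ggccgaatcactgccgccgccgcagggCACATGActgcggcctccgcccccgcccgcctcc
FOXD3 (called higher, 1.81, motif start 57 bases before the gene start, chr1:63322483-63322543, + strand): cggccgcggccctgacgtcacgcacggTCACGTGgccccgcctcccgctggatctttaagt
SERPINE2 (called higher, 1.62, motif start 88 bases before the gene start, chr2:224031533-224031593, − strand): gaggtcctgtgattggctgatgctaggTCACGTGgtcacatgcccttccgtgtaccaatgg

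In each of the lysosomal classes more members were called lower than higher. Called or not, changes were positive in 15 and negative in 15 lysosomal membrane proteins, and in 21 and 27 acid hydrolases. The vacuolar ATPase, which pumps protons into lysosomes and melanosomes, had falls and no called rise: 0 rose and 5 fell of 22 listed (22.7% called, 3 to 5 on leaving out, 3 on spike-in scaling), with a median log2 change of −0.24 (1 at an unadjusted p under 0.05 and 0 by either edgeR or DESeq2 for rises). ATP6V0D2, an alternative subunit of its membrane sector, fell from 21.4, 15.5 and 16.5 to 1.48, 1.0 and 0 (log2 change −3.45, SE 0.34, adjusted p 4.12e-06). ATP6AP1, an accessory subunit, fell from 337, 362 and 409 to 211, 210.2 and 251 (−0.72). A negative change, called or not, was seen in 19 of 22 members, and the class median in the Dox libraries was −0.27, −0.28 and −0.14.

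Among the acid hydrolases, 2 rose and 6 fell of 48 listed (16.7% called, 4 to 7 on leaving out), with a median log2 change of −0.04. GM2A, the activator of ganglioside GM2 cleavage, fell from 256, 206 and 252 to 70.1, 59.5 and 73.1 (log2 change −1.80, SE 0.14, adjusted p 2.73e-07). HEXA, of ganglioside breakdown, fell from 236, 226 and 227 to 143, 156 and 151 (log2 change −0.61, SE 0.12, adjusted p 0.00316). ASAH1, acid ceramidase, fell from 302, 288 and 312 to 159.7, 152 and 150.2 (log2 change −0.96, SE 0.11, adjusted p 2.66e-05). CTSF, a cysteine protease, rose from 69.9, 60.3 and 70.9 to 92.9, 106 and 111 (0.62), a call lost without Dox library 2 or 3 or control library 2 (0.55 to 0.60), with spike-in scaling (0.52) and without the trend (0.62).

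In the lysosomal membrane, 3 rose and 6 fell of 30 listed (30% called), with a median log2 change of −0.00. CD63, a tetraspanin of lysosomes and melanosomes, fell from 13815, 13271 and 15869 to 8280.2, 8802 and 9131 (log2 change −0.71, SE 0.12, adjusted p 0.000534). CLCN7, the lysosomal chloride exchanger, fell by 0.82 on the log2 scale and TMEM192 by 1.08. SCARB2, the receptor that delivers glucocerebrosidase, rose from 220.2, 209 and 209 to 399, 392 and 415 (log2 change 0.91, SE 0.11, adjusted p 1.9e-05). TPCN2, a cation channel known from pigmentation, rose from 13.6, 16.2 and 16.9 to 26.1, 30.4 and 32 (0.88). LAMP1 was called higher too (0.47).

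Of the genes by which mTORC1 senses nutrients, 2 rose and 5 fell of 41 listed (17.1% called, 4 to 6 on leaving out), with a median log2 change of −0.10. Without the 3 members whose change was known beforehand, 1 rose and 4 fell of 38. FNIP2, a partner of folliculin, fell from 76.6, 78.4 and 84.7 to 28.8, 30.1 and 36 (log2 change −1.32, SE 0.14, adjusted p 7.31e-06) and TBC1D7, a subunit of the TSC complex, from 309.9, 351 and 323 to 198, 201 and 184 (−0.75). SESN3, a stress-induced inhibitor of the pathway, rose from 23.4, 35.9 and 37.9 to 71.5, 64.8 and 59.2 (log2 change 1.01, SE 0.21, adjusted p 0.00459), and DEPTOR, an inhibitory subunit, rose by 1.04. TFE3 was not called at 23.7, 21.3 and 25.3 and 27, 25.7 and 24.8, and TFEB did not exceed 1.59 in any library. Autophagy genes were near the background: 3 rose and 3 fell of 47 listed (12.8% called, 2 to 4 on leaving out, 3 on spike-in scaling), with a median log2 change of 0.10. ATG4B, a protease that processes ATG8 proteins, fell from 355, 355 and 399 to 216, 232 and 227 (log2 change −0.71, SE 0.14, adjusted p 0.00206). BECN1 rose (0.60), with its call lost without Dox library 1 or 3 or control library 1 or 2 (0.55 to 0.61), with spike-in scaling (0.50) and without the trend (0.60).

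In energy metabolism glycolysis had a share of calls above the background, and the respiratory chain, the TCA cycle and mitochondrial ribosomes had shares near or under it. For glycolysis and lactate handling, 0 rose and 6 fell of 24 listed (25% called, 2 to 4 on leaving out), with a median log2 change of −0.22 (1 at an unadjusted p under 0.05 and 0 by either edgeR or DESeq2 for rises). PFKP, the platelet form of phosphofructokinase, fell from 80.2, 73.6 and 80.5 to 37.7, 40.1 and 47.1 (log2 change −0.90, SE 0.12, adjusted p 6.6e-05), and PGK1, phosphoglycerate kinase, from 526, 458 and 479 to 348, 339 and 328 (log2 change −0.52, SE 0.12, adjusted p 0.00768). In the respiratory chain, 0 rose and 9 fell of 79 listed (11.4% called, 3 to 7 on leaving out), with a median log2 change of −0.09 (1 at an unadjusted p under 0.05 and 0 by either edgeR or DESeq2 for rises), close to the 10.9% of all genes. NDUFB1, a subunit of complex I, fell from 499, 513 and 572 to 321, 316 and 338 (log2 change −0.70, SE 0.11, adjusted p 0.00038), and UQCRFS1, the iron-sulfur subunit of complex III, from 187, 167 and 185 to 121, 101 and 108 (−0.71). A negative change, called or not, was seen in 60 of 79 members, where 49.1% of all genes had one.

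Mitochondrial ribosomal proteins had few calls: 1 rose and 2 fell of 75 listed (4.0% called, 0 to 3 on leaving out), with a median log2 change of −0.18. MRPL32 rose (0.60) and MRPS25 fell (−0.67). The call of MRPL32 was lost without Dox library 1 or 2 or control library 1 or 3 (0.50 to 0.56), without any 1 of the MeWo control libraries, with spike-in scaling (0.51), without the trend (0.60), with the replicate block (0.60), with a pseudocount of 0.1 (0.62) and in the SkMel28 libraries alone (0.60), and that of MRPS25 without any 1 of the SkMel28 libraries (−0.72 to −0.64), without the trend (−0.67) and with the replicate block (−0.67). Of the TCA cycle and the enzymes that feed it, 2 rose and 2 fell of 35 listed (11.4% called, 0 to 3 on leaving out, 1 on spike-in scaling), with a median log2 change of −0.16. PDHX, a component of pyruvate dehydrogenase, rose (0.78), a call lost without Dox library 1, 2 or 3 or control library 2 or 3 (0.69 to 0.82), with spike-in scaling (0.68), without the trend (0.78) and with the replicate block (0.78). SUCLG1, a subunit of succinyl-CoA ligase, fell (−0.51), a call lost without Dox library 1 or 2 or control library 1 or 3 (−0.54 to −0.45), with spike-in scaling (−0.61) and without the trend (−0.51).

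In lipid synthesis rises and falls stood side by side, and in nucleotide synthesis the called genes fell. ELOVL2, which elongates polyunsaturated fatty acids, rose from 18.9, 22.5 and 21.5 to 50.8, 52.5 and 51.4 (log2 change 1.26, SE 0.22, adjusted p 0.000922), while SCD, the stearoyl-CoA desaturase, fell from 1111, 1192 and 1225 to 794, 801 and 799 (log2 change −0.56, SE 0.11, adjusted p 0.00196), and in the whole class 1 rose and 2 fell of 25 listed (12% called), with a median log2 change of 0.06. For sterol genes, 0 rose and 2 fell of 25 listed (8.0% called, 1 to 2 on leaving out), with a median log2 change of −0.21 (0 at an unadjusted p under 0.05 and 0 by either edgeR or DESeq2 for rises). Among sphingolipid genes, 1 rose and 3 fell of 27 listed (14.8% called), with a median log2 change of −0.08. B4GALT6 and B4GALT5 code for alternative lactosylceramide synthases and moved apart: B4GALT6 rose from 35.9, 32 and 29.9 to 64.7, 59.5 and 62.6 (log2 change 0.91, SE 0.21, adjusted p 0.00864) and B4GALT5 fell from 121, 138 and 134 to 73.3, 76.2 and 76.8 (log2 change −0.79, SE 0.11, adjusted p 0.000127). Of the NAD genes, 1 rose and 1 fell of 23 listed (8.7% called), with a median log2 change of −0.09, the rise being that of NAMPT (0.94), the salvage enzyme. The change of NAMPT was known beforehand, and without it 0 rose and 1 fell of 22. In nucleotide synthesis, 0 rose and 6 fell of 32 listed (18.8% called, 3 to 5 on leaving out), with a median log2 change of −0.14 (0 at an unadjusted p under 0.05 and 0 by either edgeR or DESeq2 for rises). PRPS2, which makes the ribose phosphate donor, fell from 67.7, 69.8 and 70.1 to 36.8, 32.4 and 28.4 (log2 change −1.07, SE 0.15, adjusted p 0.000138).

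The apparatus of protein and RNA synthesis moved little. None of 82 cytosolic ribosomal proteins was called by limma (2 were higher and 0 lower at an unadjusted p under 0.05, and 0 were called by either edgeR or DESeq2), and their median change was −0.02. For spliceosome and hnRNP genes, 0 rose and 2 fell of 79 listed (2.53% called), with a median log2 change of −0.05 (0 at an unadjusted p under 0.05 and 0 by either edgeR or DESeq2 for rises). For coat proteins of ER to Golgi traffic, 1 rose and 1 fell of 48 listed (4.17% called, 0 to 2 on leaving out, 0 on spike-in scaling), with a median log2 change of 0.09, and for tRNA synthetases, 1 rose and 0 fell of 22 listed (4.55% called, 0 to 2 on leaving out, 0 on spike-in scaling), with a median log2 change of −0.04 (3 at an unadjusted p under 0.05 and 0 by either edgeR or DESeq2 for falls). Of translation factors, 1 rose and 2 fell of 59 listed (5.08% called, 1 to 3 on leaving out, 1 on spike-in scaling), with a median log2 change of −0.04. EIF5A, the hypusine-bearing elongation factor, fell from 56.8, 69.5 and 59.4 to 28.2, 27.1 and 29 (log2 change −1.11, SE 0.17, adjusted p 0.000318). EIF4G2 rose (0.50), and its call was lost without any 1 of the SkMel28 libraries (0.47 to 0.52), without any 1 of the MeWo control libraries, with spike-in scaling (0.40), without the trend (0.50), with the replicate block (0.50) and with a pseudocount of 0.1 (0.50).

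Genes regulated by ATF4, the effector of the integrated stress response, moved both ways: 7 rose and 5 fell of 35 listed (34.3% called, 6 to 8 on leaving out), with a median log2 change of 0.12. SLC38A2, a transporter of neutral amino acids, rose from 40.6, 30.1 and 40.2 to 70.4, 76.5 and 72.8 (log2 change 0.98, SE 0.16, adjusted p 0.00049), and SLC1A4, another, from 493, 330.3 and 464 to 714, 747 and 909 (log2 change 0.89, SE 0.20, adjusted p 0.00673). SLC7A1, which carries arginine and lysine, fell from 82.7, 72.7 and 82.4 to 40.1, 42.1 and 51.7 (log2 change −0.82, SE 0.13, adjusted p 0.000377). These 3 genes are also in the class of amino acid transporters, where 3 rose and 4 fell of 33 listed (21.2% called, 4 to 6 on leaving out), with a median log2 change of 0.06. GDF15, a secreted stress factor, fell from 354, 456 and 375 to 269, 238 and 282 (−0.58), a call lost without Dox library 1 or 2 or control library 2 (−0.60 to −0.47) and without the trend (−0.58).

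Chaperones and the proteasome were near or under the background. Of ER chaperones, 0 rose and 2 fell of 39 listed (5.13% called, 1 to 2 on leaving out), with a median log2 change of 0.07 (11 at an unadjusted p under 0.05 and 1 by edgeR and 2 by DESeq2 for rises). Over all 12616 genes, 1549 were higher at an unadjusted p under 0.05 (limma). HSPA5, the main luminal HSP70, was not called at 1194, 1153 and 1206 and 1402, 1426 and 1517 (adjusted p 0.0623), although its libraries did not overlap. Of heat shock proteins, 3 rose and 2 fell of 56 listed (8.93% called, 2 to 5 on leaving out, 3 on spike-in scaling), with a median log2 change of −0.04. DNAJA4, a co-chaperone, rose from 24.8, 23.2 and 19.2 to 50.8, 51.5 and 45.6 (log2 change 1.11, SE 0.14, adjusted p 3.12e-05), and BAG5, a nucleotide exchange factor, fell from 66.5, 76.2 and 70.9 to 36.2, 42.4 and 46.5 (log2 change −0.76, SE 0.16, adjusted p 0.00353). Of proteasome genes, 0 rose and 3 fell of 48 listed (6.25% called), with a median log2 change of −0.05 (1 at an unadjusted p under 0.05 and 0 by either edgeR or DESeq2 for rises), with PSMA7, a subunit of the core, going from 1113, 1002 and 1122 to 725, 673 and 755 (log2 change −0.59, SE 0.11, adjusted p 0.00165).

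Antioxidant genes fell more often than they rose: 3 rose and 7 fell of 44 listed (22.7% called, 6 to 9 on leaving out), with a median log2 change of −0.05. GSTO1, a glutathione transferase, fell from 1039, 1059.8 and 1084 to 399.6, 422 and 459 (log2 change −1.31, SE 0.13, adjusted p 3.17e-06). HMOX1, heme oxygenase, fell from 138, 208 and 163 to 43, 40.4 and 49.3 (log2 change −1.90, SE 0.30, adjusted p 0.000422). PRDX1, a peroxiredoxin, fell from 1129, 1216 and 1209 to 625, 628 and 719.8 (log2 change −0.85, SE 0.12, adjusted p 0.000123), and GSTP1 by 0.75 on the log2 scale. NQO1, a quinone reductase that NRF2 controls, rose from 727, 694 and 686 to 1095, 1074 and 1107 (log2 change 0.64, SE 0.10, adjusted p 0.000511), with its call lost with spike-in scaling (0.54). For zinc transporters and metallothioneins, 1 rose and 3 fell of 21 listed (19% called, 2 on leaving out), with a median log2 change of 0.02, with SLC39A11 going from 159, 182 and 192 to 71.5, 65.5 and 79.8 (log2 change −1.28, SE 0.13, adjusted p 3.59e-06) and SLC39A13 from 43.7, 33.6 and 35.3 to 57.6, 70.2 and 74 (log2 change 0.83, SE 0.17, adjusted p 0.00335).

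The p53 and hypoxia lists had no common direction. Of p53 targets, 3 rose and 4 fell of 31 listed (22.6% called, 2 to 6 on leaving out, 4 on spike-in scaling), with a median log2 change of −0.14, and of hypoxia targets, 4 rose and 3 fell of 31 listed (22.6% called, 2 to 6 on leaving out), with a median log2 change of −0.06. PLK2 rose from 5.85, 5.71 and 5.36 to 15.7, 11.7 and 13 (log2 change 1.12, SE 0.18, adjusted p 0.000442) and MXI1, an antagonist of MYC, from 121, 109 and 96.6 to 236, 224 and 201 (log2 change 1.01, SE 0.14, adjusted p 0.000138). BBC3, the pro-apoptotic protein PUMA, fell from 155, 188 and 161 to 102, 115 and 115 (−0.59), a call lost without Dox library 1 (−0.54).

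Genes of cell division fell together and by modest amounts. For mitosis, kinetochore and cytokinesis, 0 rose and 23 fell of 88 listed (26.1% called, 10 to 16 on leaving out), with a median log2 change of −0.48 (0 at an unadjusted p under 0.05 and 0 by either edgeR or DESeq2 for rises). A negative change, called or not, was seen in 82 of 88 members. The class median in the Dox libraries was −0.48, −0.46 and −0.54. CENPF, a kinetochore protein, fell from 169, 150.1 and 182 to 94.4, 102 and 101 (log2 change −0.75, SE 0.12, adjusted p 0.000347). AURKA, the spindle pole kinase, fell from 165, 148 and 189 to 82.8, 99.6 and 91.6 (log2 change −0.86, SE 0.18, adjusted p 0.0037). TPX2, its activator, fell from 141, 135 and 149 to 72.1, 75.5 and 89.4 (−0.84), and TOP2A, the topoisomerase of dividing cells, from 336, 368 and 339.9 to 212, 211 and 209 (−0.72). Of the called members, 1 fell by 2-fold or more.

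For DNA replication, 0 rose and 13 fell of 60 listed (21.7% called, 5 to 7 on leaving out), with a median log2 change of −0.36 (0 at an unadjusted p under 0.05 and 0 by either edgeR or DESeq2 for rises), and 56 of 60 had a negative change. POLE4, a histone-fold subunit of DNA polymerase epsilon, fell from 349, 299 and 381 to 157, 155 and 163 (log2 change −1.10, SE 0.14, adjusted p 4.45e-05), and CDT1, which licenses origins, from 36.8, 34.9 and 34.9 to 18.1, 18 and 19 (−0.91). On leaving out 1 library the median was between −0.40 and −0.31. For DNA repair, 0 rose and 6 fell of 72 listed (8.33% called, 2 to 6 on leaving out), with a median log2 change of −0.15 (2 at an unadjusted p under 0.05 and 0 by either edgeR or DESeq2 for rises), below the background share. BRCA1, of the homologous recombination pathway, fell from 54.8, 53.9 and 59.8 to 25.2, 28.1 and 20.2 (log2 change −1.17, SE 0.20, adjusted p 0.000928).

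The G1 regulators were mixed: 3 rose and 2 fell of 28 listed (17.9% called, 3 to 6 on leaving out, 3 on spike-in scaling), with a median log2 change of −0.07. CDK2 fell from 1992, 1372 and 1992 to 655, 675 and 771 (log2 change −1.33, SE 0.19, adjusted p 0.000172). Its locus overlaps that of PMEL on the opposite strand, and PMEL fell from 6701, 6105 and 6879.5 to 2529.5, 2586 and 2591 (log2 change −1.35, SE 0.11, adjusted p 2.73e-07), so that with the counting strand unknown the value of CDK2 is uncertain. CDKN1C, the inhibitor p57, rose from 7.8, 9.2 and 9.2 to 14, 17.4 and 16.6 (log2 change 0.80, SE 0.16, adjusted p 0.00354). CCND1, cyclin D1, was not called, at 863, 959 and 1032 and 586, 669 and 679 (adjusted p 0.0904). Of histone transcripts with a poly(A) tail, 2 rose and 1 fell of 19 listed (15.8% called, 0 to 2 on leaving out, 0 on spike-in scaling), with a median log2 change of −0.21, with H3F3B (0.35) and H2AFZ (−0.37) named by the rule. The call of H3F3B was lost without any 1 of the SkMel28 libraries (0.32 to 0.39), without any 1 of the MeWo control libraries, with spike-in scaling (0.25), without the trend (0.35) and with the replicate block (0.35). That of H2AFZ was lost without Dox library 2 or 3 or control library 1, 2 or 3 (−0.39 to −0.34), with spike-in scaling (−0.47), without the trend (−0.37) and with the replicate block (−0.37).

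In the BCL2 and caspase families, 2 rose and 5 fell of 37 listed (18.9% called, 3 to 7 on leaving out), with a median log2 change of −0.06. BIRC7, the melanoma inhibitor of apoptosis, fell from 581, 777 and 673 to 179, 183 and 216 (log2 change −1.80, SE 0.16, adjusted p 1.04e-06). BCL2A1, an anti-apoptotic protein of the melanocyte lineage whose upstream stretch is given above, fell from 431, 423 and 417 to 147, 141 and 120.0 (log2 change −1.64, SE 0.23, adjusted p 0.000157). BIRC2 rose (0.65), and its call was lost without Dox library 1, 2 or 3 or control library 1 or 2 (0.44 to 0.71), with spike-in scaling (0.55), without the trend (0.65) and in the SkMel28 libraries alone (0.65).

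**Figure D3:**
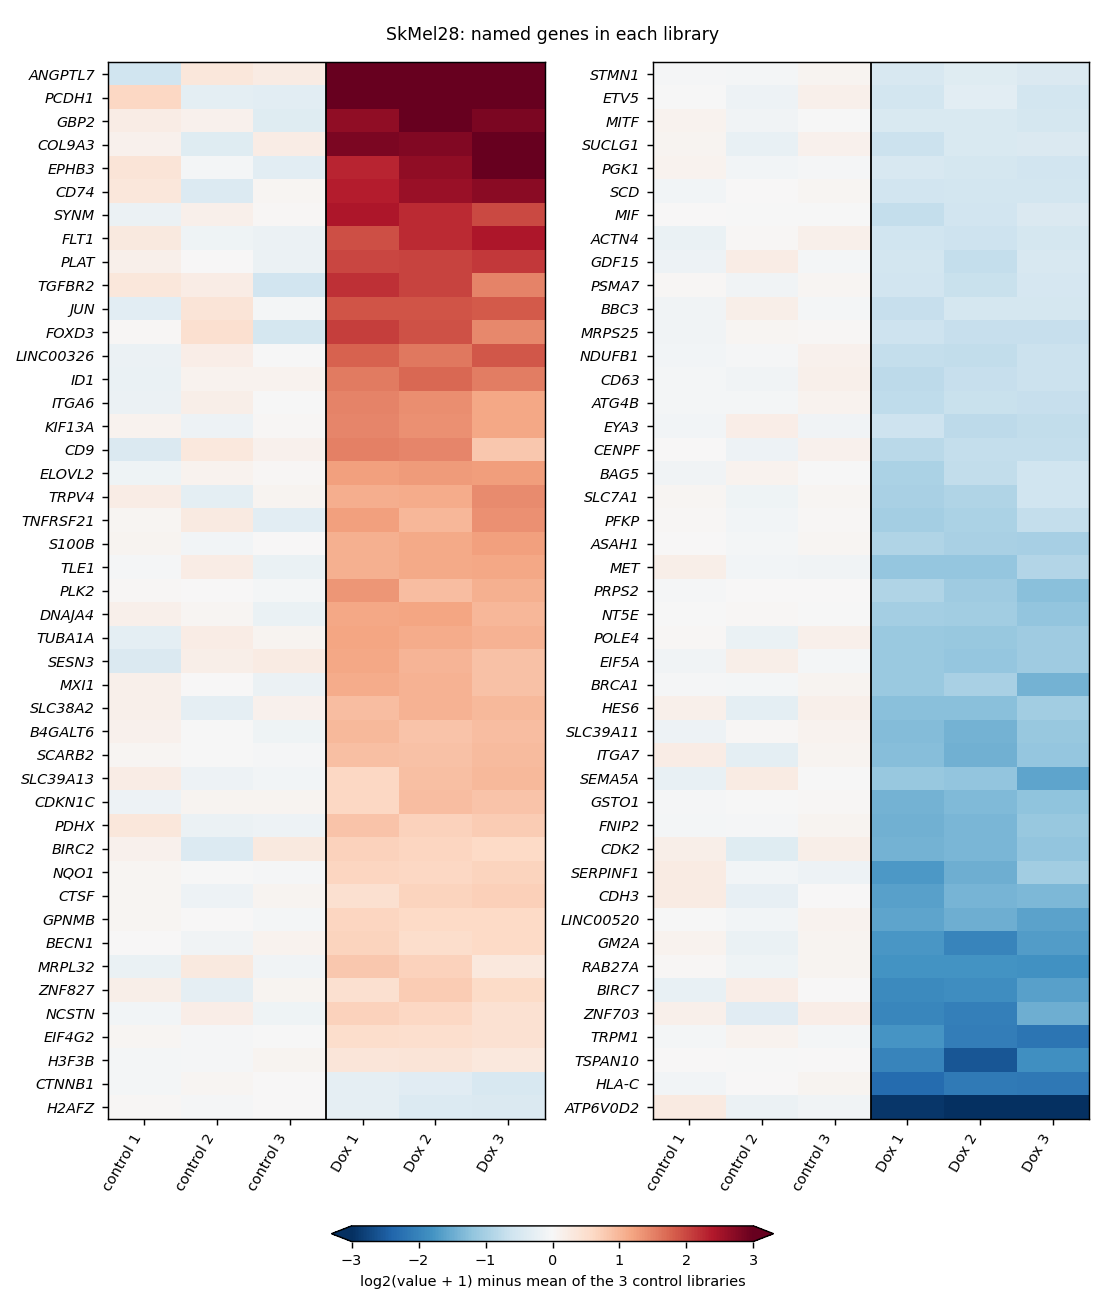
The named genes reported here in each of the 6 SkMel28 libraries, coloured by log2(value + 1) minus the mean of the 3 control libraries (red higher, blue lower, colours saturating at 3), ordered by fitted change. The 3 Dox columns share the direction in every gene, which the naming rule required of all but MITF. The pale rows around the middle are the small changes of genes such as H3F3B and CTNNB1.

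In signalling lists other than NOTCH, rises outnumbered falls. Of receptor tyrosine kinases and their ligands, 9 rose and 3 fell of 35 listed (34.3% called, 7 to 10 on leaving out), with a median log2 change of 0.34. Without the 3 members whose change was known beforehand, 8 rose and 1 fell of 32. MERTK, a receptor for GAS6, rose from 4.45, 1.59 and 1.92 to 15.7, 15 and 16.6 (log2 change 2.28, SE 0.31, adjusted p 0.000106), and FLT1, a receptor for VEGF, from 2.51, 1.59 and 1.53 to 9.8, 12.4 and 14.2 (log2 change 2.19, SE 0.30, adjusted p 0.000102). The ligands TGFA and HBEGF, which bind the EGF receptor, rose by 1.85 and 1.61. MET, the receptor for hepatocyte growth factor, fell from 76, 63.8 and 62.8 to 29.7, 29.4 and 36 (log2 change −1.07, SE 0.15, adjusted p 0.000107). Of MAPK outputs, 8 rose and 2 fell of 39 listed (25.6% called, 5 to 8 on leaving out, 6 on spike-in scaling), with a median log2 change of 0.16. JUN, an AP-1 subunit, rose from 24.2, 40 and 29.1 to 115, 115 and 112 (log2 change 1.87, SE 0.16, adjusted p 9.01e-07), and SPRED1, an inhibitor of the pathway, from 46.5, 40.3 and 38.3 to 83.1, 81.2 and 78.3 (0.94). ETV5, a transcription factor downstream of ERK, fell (−0.47), a call lost without Dox library 1 or 3 or control library 1 or 3 (−0.47 to −0.40) and without the trend (−0.47).

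In the TGF-beta and BMP pathway, 12 rose and 1 fell of 49 listed (26.5% called, 6 to 12 on leaving out, 7 on spike-in scaling), with a median log2 change of 0.38, against 5.88% of all genes higher. The receptor TGFBR2 rose from 12.5, 11.4 and 6.13 to 47.2, 42.1 and 29 (log2 change 1.90, SE 0.30, adjusted p 0.000429) and TGFBR1 from 67.4, 81.2 and 57.9 to 165, 140.4 and 124 (log2 change 1.05, SE 0.17, adjusted p 0.000658). The BMP target genes ID1 and ID3, inhibitors of helix-loop-helix factors, rose too, ID1 from 24.2, 30.5 and 30.3 to 85.5, 95.3 and 83.7 (log2 change 1.61, SE 0.18, adjusted p 1.41e-05) and ID3 by 0.76. Of genes controlled by YAP and TEAD, 9 rose and 1 fell of 30 listed (33.3% called, 6 on spike-in scaling), with a median log2 change of 0.39, TGFBR2 being in both lists. AMOTL2, a feedback inhibitor of YAP, rose from 3.06, 5.39 and 1.53 to 16.6, 16.7 and 11.5 (log2 change 1.96, SE 0.34, adjusted p 0.000887). NT5E, the ecto-nucleotidase CD73, was the single member that fell, from 189.6, 196 and 192 to 94.4, 92.2 and 84.6 (log2 change −1.08, SE 0.15, adjusted p 0.000156).

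In the WNT pathway, 7 rose and 2 fell of 44 listed (20.5% called, 5 to 8 on leaving out, 4 on spike-in scaling), with a median log2 change of 0.25. The receptor FZD7 rose from 26.5, 32 and 20.3 to 86.1, 81.2 and 55.3 (log2 change 1.46, SE 0.31, adjusted p 0.00454), LGR4, the receptor for R-spondins, by 1.45, and WLS, which carries WNT ligands out of the cell, by 0.95. TLE1, a corepressor, rose from 27.3, 32.7 and 24.1 to 59.7, 62.5 and 63.5 (log2 change 1.12, SE 0.15, adjusted p 5.59e-05). CTNNB1, beta-catenin, fell by 0.37 on the log2 scale, a call lost without Dox library 2 or 3 or control library 2 or 3 (−0.38 to −0.30), with spike-in scaling (−0.46), without the trend (−0.37) and with the replicate block (−0.37). Few NOTCH genes were called: 1 rose and 2 fell of 31 listed (9.68% called), with a median log2 change of 0.11. HES6 fell from 237, 175 and 237 to 89.1, 89.6 and 103 (log2 change −1.19, SE 0.14, adjusted p 1.84e-05). NCSTN rose (0.59), and its call was lost without Dox library 1, 2 or 3 or control library 1 or 3 (0.53 to 0.66), without any 1 of the MeWo control libraries, with spike-in scaling (0.50) and without the trend (0.59).

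Among guidance cues and their receptors, 11 rose and 3 fell of 46 listed (30.4% called, 9 to 11 on leaving out), with a median log2 change of 0.20. EPHB3, an ephrin receptor, rose from 2.51, 1.59 and 1.15 to 12.2, 16 and 20.9 (log2 change 2.66, SE 0.28, adjusted p 8.41e-06). Secreted semaphorins rose from low levels, SEMA3D from 1.95, 2.22 and 0 to 15.1, 12.4 and 15.4 (log2 change 2.85, SE 0.38, adjusted p 7.63e-05) and SEMA3B from 3.34, 3.49 and 1.53 to 15.7, 22.7 and 17.8 (log2 change 2.41, SE 0.31, adjusted p 4.6e-05). SEMA5A, a transmembrane semaphorin, fell from 23.1, 32.4 and 26.8 to 11.9, 11.4 and 8.46 (log2 change −1.30, SE 0.18, adjusted p 0.000136).

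Genes of the extracellular matrix rose widely. Of the collagens, 10 rose and 0 fell of 18 listed (55.6% called), with a median log2 change of 1.04 (0 at an unadjusted p under 0.05 and 0 by either edgeR or DESeq2 for falls), and all 10 called members rose by 2-fold or more. COL9A3 rose from 124, 87.6 and 133 to 803, 781 and 898 (log2 change 2.86, SE 0.14, adjusted p 1.83e-09), COL27A1 from 3.06, 1.59 and 6.9 to 14.5, 17.7 and 16.3 (1.97) and COL6A1 from 2.78, 6.03 and 6.9 to 20.2, 28.1 and 26 (log2 change 2.10, SE 0.29, adjusted p 0.000101). Without the 2 collagens whose rise was known beforehand, 8 of 16 rose.

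Of laminins and matrix glycoproteins, 18 rose and 0 fell of 45 listed (40% called), with a median log2 change of 0.41 (2 at an unadjusted p under 0.05 and 1 by either edgeR or DESeq2 for falls). Fibronectin, FN1, rose from 1191, 1549 and 1272 to 4459.7, 4567 and 4447 (log2 change 1.76, SE 0.20, adjusted p 1.9e-05), and SPARC, a collagen-binding protein, from 1076, 907 and 1027 to 3301, 3248 and 3229 (log2 change 1.70, SE 0.12, adjusted p 1.17e-07). HSPG2, the basement membrane proteoglycan perlecan, rose from 139, 126 and 119 to 319.7, 351 and 491 (log2 change 1.57, SE 0.18, adjusted p 1.73e-05), and the laminin chain LAMA4 by 1.40. ANGPTL7, an angiopoietin-like secreted protein, rose from 0.835, 2.54 and 2.3 to 104, 104 and 93.1 (log2 change 5.19, SE 0.34, adjusted p 5.89e-08). Its gene lies within MTOR on the opposite strand. MGP, matrix Gla protein, had at most 3 reads in any control library and rose at least 6.35-fold against the floor of 3 reads per library. Without the 3 members known beforehand, 15 of 42 rose.

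The receptors of the matrix rose with it: of the integrins, 8 rose and 1 fell of 17 listed (52.9% called), with a median log2 change of 0.50. ITGA6, a laminin receptor chain, rose from 152, 194 and 169 to 480.3, 452 and 385 (log2 change 1.35, SE 0.13, adjusted p 2.56e-06), ITGA2, a collagen receptor chain, from 9.74, 7.62 and 6.9 to 42.5, 32.8 and 41.7 (log2 change 2.14, SE 0.33, adjusted p 0.000293), and ITGA1, another, from 4.45, 4.76 and 3.83 to 15.7, 17.7 and 15.4 (1.69). ITGA7 was the exception, falling from 62.1, 43.5 and 56.3 to 21.4, 19.1 and 23.3 (log2 change −1.30, SE 0.17, adjusted p 6.96e-05). The plot of values by library shows these chains beside genes of other groups.

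**Figure D4:**
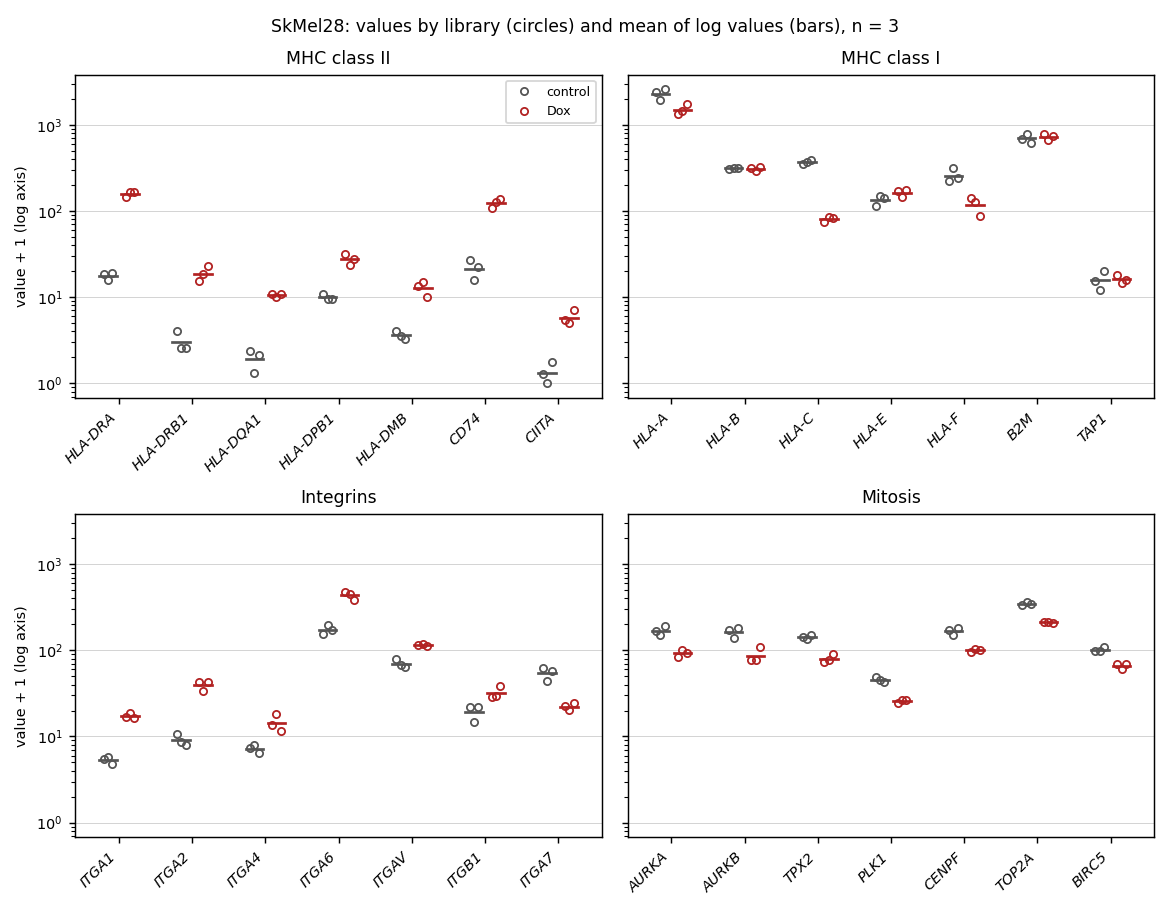
Values plus 1 on a log axis in each control (grey) and Dox (red) library of SkMel28 for MHC class II, MHC class I, integrin and mitosis genes chosen after their values were seen, with bars at the mean of the log values (n = 3). Circles of the groups are apart for the class II genes and overlap for HLA-B, B2M and TAP1.

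Among cadherins, 7 rose and 2 fell of 19 listed (47.4% called), with a median log2 change of 0.45, and without the 1 known beforehand 6 of 18 rose. CDH2, N-cadherin, rose from 10.3, 16.2 and 12.6 to 54.6, 55.5 and 41.1 (log2 change 1.88, SE 0.23, adjusted p 3.39e-05), and PCDH1 from 3.9, 1.59 and 1.53 to 33.2, 37.8 and 40.8 (log2 change 3.59, SE 0.27, adjusted p 2.5e-07). P-cadherin, CDH3, fell from 99.1, 70.1 and 83.9 to 26.1, 31.4 and 32 (log2 change −1.46, SE 0.33, adjusted p 0.00667). E-cadherin, CDH1, was low in both groups and fell from 3.06, 5.71 and 4.6 to 2.08, 0.668 and 1.21 (log2 change −1.25, SE 0.27, adjusted p 0.0052). Of matrix proteases and their inhibitors, 14 rose and 1 fell of 39 listed (38.5% called), with a median log2 change of 0.49. PLAT, the tissue plasminogen activator, rose from 92.4, 84.1 and 72.8 to 337, 338 and 363 (log2 change 2.05, SE 0.14, adjusted p 1.17e-07), and SERPINE2, which inhibits it, from 953, 683 and 909.7 to 2579.7, 2495 and 2666 (log2 change 1.62, SE 0.19, adjusted p 2.23e-05). MMP15 rose from 7.24, 5.08 and 8.43 to 29.7, 32.8 and 33.8 (2.09) and TIMP3, an inhibitor, from 429.6, 431 and 423 to 863, 861 and 864 (1.01). SERPINF1 was the single member that fell, from 27, 21.6 and 20.3 to 6.23, 7.69 and 10.6 (log2 change −1.40, SE 0.28, adjusted p 0.0033).

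Tetraspanins, membrane organisers of adhesion and vesicles, went mostly the other way: 2 rose and 6 fell of 20 listed (40% called, 5 to 8 on leaving out), with a median log2 change of −0.21. TSPAN10 fell from 107, 104 and 106 to 25.8, 17 and 28.7 (log2 change −2.13, SE 0.24, adjusted p 1.48e-05), and TSPAN4 from 128, 128 and 129.9 to 62.3, 67.2 and 58.6 (−1.03). CD9 rose from 73.2, 123 and 108 to 286, 275 and 174 (log2 change 1.26, SE 0.22, adjusted p 0.000952). Of S100 proteins and annexins, 5 rose and 0 fell of 16 listed (31.2% called), with a median log2 change of 0.21 (1 at an unadjusted p under 0.05 and 0 by either edgeR or DESeq2 for falls). S100B, a marker of melanocytes and Schwann cells, rose from 536, 481 and 513 to 1059, 1118 and 1193 (log2 change 1.14, SE 0.10, adjusted p 9.67e-07), ANXA1 from 23.9, 28.6 and 18.8 to 119, 99.3 and 76.5 (log2 change 2.0, SE 0.34, adjusted p 0.000821) and S100A10, the partner of ANXA2, from 265, 259.6 and 257 to 527, 545 and 537 (1.04).

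Of ion channels, 6 rose and 4 fell of 58 listed (17.2% called), with a median log2 change of 0.05. TRPV4, a mechanosensitive calcium channel, rose from 19.2, 13 and 17.2 to 35.9, 36.1 and 45 (log2 change 1.20, SE 0.21, adjusted p 0.000988), and KCNAB1, a potassium channel subunit, fell from 21.7, 18.7 and 18.4 to 5.64, 4.34 and 6.95 (log2 change −1.65, SE 0.27, adjusted p 0.000633). Tubulin isotypes moved apart: 3 rose and 4 fell of 28 listed (25% called, 3 to 5 on leaving out, 4 on spike-in scaling), with a median log2 change of −0.12. TUBA1A, TUBB3 and TUBB2A, isotypes of neural cells, rose, TUBA1A from 133, 188 and 171 to 367, 351 and 334 (log2 change 1.10, SE 0.16, adjusted p 0.000157) and TUBB3 from 60.7, 60.3 and 67.4 to 104, 103 and 118 (0.78). STMN1, which destabilises microtubules, fell (−0.43), a call lost without Dox library 1 or control library 3 (−0.40 to −0.38), with spike-in scaling (−0.53) and without the trend (−0.43). Near-identical tubulin genes share reads, and how the counting treated them is not given in the sources used here. Of actin-related genes, 6 rose and 2 fell of 39 listed (20.5% called, 3 to 8 on leaving out, 3 on spike-in scaling), with a median log2 change of 0.18. The intermediate filament gene SYNM rose from 41.8, 53 and 48.3 to 259.8, 228 and 191 (log2 change 2.22, SE 0.18, adjusted p 4.86e-07), and ACTN4, an actin crosslinker, fell from 2604, 3071 and 3313 to 1977, 1941 and 2072 (log2 change −0.58, SE 0.12, adjusted p 0.00467).

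Antigen presentation genes split between MHC classes. In the list as a whole, 9 rose and 4 fell of 40 listed (32.5% called), with a median log2 change of 0.01, and all 9 called rises were of 2-fold or more. The rises were in class II genes and their partners: HLA-DRA went from 17.5, 14.6 and 18 to 142, 163 and 163 (log2 change 3.15, SE 0.33, adjusted p 5.73e-06) and CD74, the invariant chain, from 25.6, 14.9 and 21.1 to 107, 126 and 136 (log2 change 2.55, SE 0.25, adjusted p 3.17e-06). CIITA, the transcriptional activator of class II genes, had at most 2 reads in a control library and rose at least 4.94-fold against the floor. HLA-DQA1 rose from 1.39, 0.317 and 1.15 to 9.8, 9.02 and 9.97 (2.48). In class I, HLA-C fell from 346, 370.3 and 390.1 to 73.6, 83.6 and 81.9 (log2 change −2.20, SE 0.22, adjusted p 4.27e-06), while HLA-B stood at 305, 315 and 315 and 313, 289.8 and 325 and the light chain B2M at 689, 783 and 618 and 776, 673 and 738, neither called. HLA genes are near-identical to each other and vary between cell lines, so reads may have been split or lost between them, and their values are uncertain.

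Of interferon-stimulated genes, 2 rose and 8 fell of 61 listed (16.4% called), with a median log2 change of −0.09. ISG15, a ubiquitin-like protein, fell from 15.3, 23.2 and 16.1 to 4.45, 4.68 and 3.63 (log2 change −1.85, SE 0.27, adjusted p 0.000199), and PLSCR1, a phospholipid scramblase, from 70.2, 73.9 and 69.7 to 33.8, 33.8 and 29.9 (−1.11). GBP2, a guanylate-binding protein that interferon gamma induces, rose from 2.78, 2.54 and 1.53 to 19.3, 26.7 and 22.1 (log2 change 2.86, SE 0.32, adjusted p 1.48e-05). Of NF-kB targets and cytokines, 6 rose and 2 fell of 38 listed (21.1% called, 3 to 6 on leaving out, 4 on spike-in scaling), with a median log2 change of 0.15. TNFRSF21, a death receptor, rose from 13.4, 15.5 and 9.96 to 31.2, 26.4 and 34.4 (log2 change 1.19, SE 0.20, adjusted p 0.00066). MIF, a cytokine, fell from 1636, 1608 and 1597 to 988, 1081 and 1187 (−0.58), a call lost without Dox library 1 (−0.51) and without the trend (−0.58).

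The neural crest and glial list had the highest share of calls: 20 rose and 0 fell of 33 listed (60.6% called), with a median log2 change of 0.95 (1 at an unadjusted p under 0.05 and 1 by either edgeR or DESeq2 for falls). Its 5 members known beforehand were part of it by choice, and of the other 28, 15 rose, with a median of 0.75. MATN2, a matrilin of the extracellular matrix, rose from 0.835, 2.22 and 0.766 to 21.1, 19.4 and 19.3 (log2 change 3.26, SE 0.28, adjusted p 9.01e-07). FOXD3, a neural crest transcription factor, rose from 7.24, 10.2 and 4.6 to 32.7, 29.1 and 20.9 (log2 change 1.81, SE 0.32, adjusted p 0.00119), and SOX2 rose at least 2.97-fold against the floor. SOX10, which marks both states, was not called at 273, 239.6 and 258 and 292, 305 and 331. FOXD3 overlaps the antisense gene FOXD3-AS1. Of genes of the undifferentiated melanoma state, 9 rose and 1 fell of 29 listed (34.5% called), with a median log2 change of 0.40. CD44, the hyaluronan receptor, rose from 403, 335 and 363 to 665, 694 and 763 (log2 change 0.95, SE 0.12, adjusted p 5.4e-05). AXL, the receptor most used to mark this state, had at most 0.668 in any library.

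Large gene families without a common function were at or under the background. Of homeobox, SOX, PAX, forkhead and T-box factors, 7 rose and 1 fell of 89 listed (8.99% called, 5 to 8 on leaving out), with a median log2 change of 0.12. The 1 that fell was EYA3, which the list holds although it codes for an EYA protein and is not of these families. No gene of the families themselves was called lower. EYA3 went from 89.1, 108 and 88.1 to 60.9, 54.8 and 56.5 (log2 change −0.71, SE 0.15, adjusted p 0.0042). Of long noncoding RNAs, 15 rose and 15 fell of 408 listed (7.35% called, 15 to 21 on leaving out, 19 on spike-in scaling), with a median log2 change of 0.02. LINC00520 fell from 279, 265 and 305 to 93.2, 101 and 92.2 (log2 change −1.56, SE 0.17, adjusted p 1.29e-05). LINC00326 rose from 1.95, 2.86 and 2.3 to 10.4, 9.02 and 11.2 (1.74), a call lost with a pseudocount of 0.1 (2.07). Of zinc finger genes, 4 rose and 8 fell of 397 listed (3.02% called, 4 to 9 on leaving out, 7 on spike-in scaling), with a median log2 change of −0.01. ZNF703 fell from 347, 247 and 361 to 80.4, 74.5 and 114 (log2 change −1.82, SE 0.20, adjusted p 1.28e-05). ZNF827 rose (0.60), a call lost without Dox library 1, 2 or 3 or control library 2 or 3 (0.47 to 0.66), with spike-in scaling (0.50) and without the trend (0.60).

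Whether these changes were larger or smaller than in MeWo was tested as a difference of changes, SkMel28 minus MeWo. This was called for 894 of 12616 genes (7.09%), and for 359 of the 1378 genes called in SkMel28, which share libraries with that test. The total depends on single libraries: it was 3115 without MeWo Dox library 1 and 449 without MeWo control library 2. Per the labels the lines were also kept in different media, so line and medium cannot be told apart. Matrix genes differed by member: FN1 rose in SkMel28 and changed by −0.03 in MeWo (difference 1.78, adjusted p 0.00144), and COL6A1 by −0.20 (difference 2.31, adjusted p 0.00256). Targets of YAP differed in 7 of 30 members, with a median change of 0.39 in SkMel28 and −0.05 in MeWo, and IGFBP3 changed by 1.47 and −1.29 (difference 2.76, adjusted p 0.000263). ER chaperones, of which 0 were called higher in SkMel28, had 14 called rises in MeWo. Their median change was 0.07 in SkMel28, with 24 of 39 positive, and 0.31 in MeWo. The difference was called for 7 of the 39, HSP90B1 by −0.88, adjusted p 0.0265. Amino acid transporters had medians of 0.06 and −0.44, with SLC1A4 differing by 1.33, adjusted p 0.00904.

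**Figure D5:**
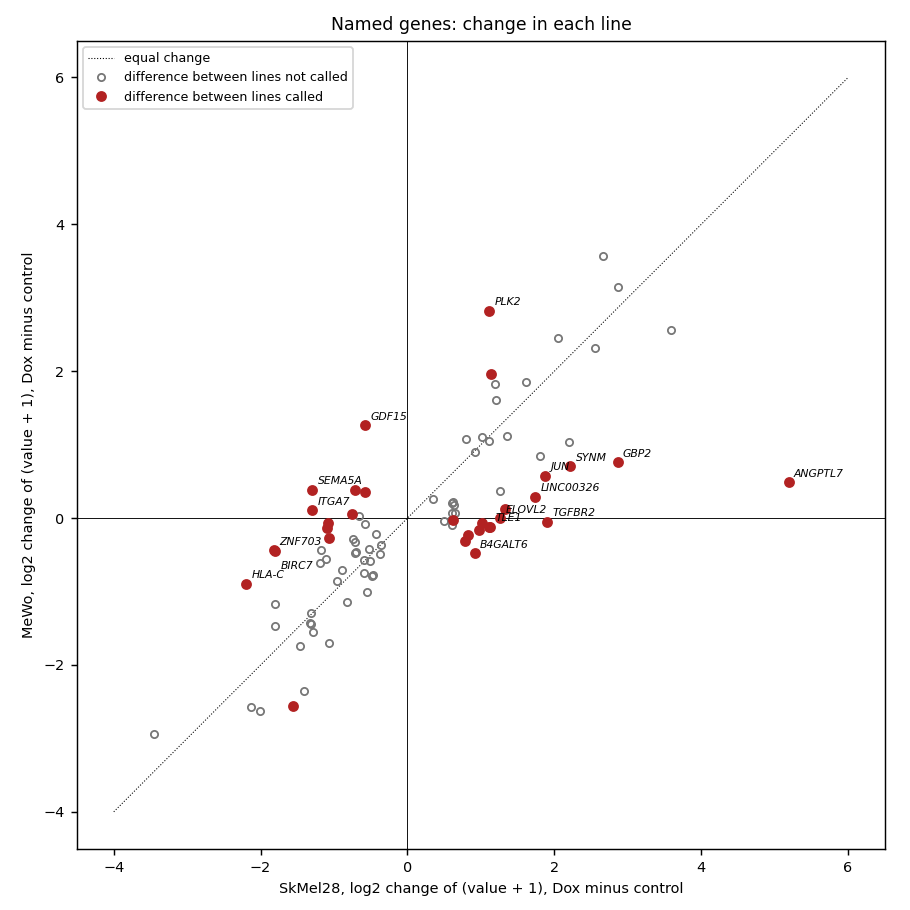
Log2 change with Dox in SkMel28 (horizontal) and MeWo (vertical) for the named genes reported here, filled red where the difference between lines was called, with the dotted line marking equal change and symbols given for the larger differences. ANGPTL7 lies far to the right, at 5.19 in SkMel28 and 0.48 in MeWo, and GDF15 lies in the upper left, at −0.58 and 1.27.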

How the data were processed

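Total RNA of MeWo and SkMel28 cells was made into QuantSeq forward 3′ end libraries, and the authors deposited one table of normalised signal: reads per gene divided by an effective library size (edgeR) and multiplied by 1000000. The submitters' processing notes name hg38, FastQC 0.11.7, cutadapt 2.8 and STAR 2.5.1b. The counting tool, annotation and strand are not given in the sources used here. In each library 100% of values were whole multiples of 1 step (tolerance 0.02), which gave back reads.

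The 67 spike-ins were set aside and log2(value + 1) was fitted with limma 3.58.1 in R 4.3.3 (eBayes with a mean-variance trend, 4 group means over all 12 libraries, two-sided, Benjamini-Hochberg over 12616 genes). That fit recovered 79% of 2-fold and 100% of 4-fold changes in simulated data for the SkMel28 comparison. The changed genes, 200 of 12616, were drawn from those with a control mean of at least 5, and all genes shared 1 fixed dispersion. Recovery of changes in genes of lower control values was not simulated. Alternatives were recovered reads tested with edgeR 4.0.16 and with DESeq2 1.42.0, scaling to the upper quartile or to spike-ins, pseudocounts of 0.1 and 5, filters (at least 5, or at least 1, in 3 of the SkMel28 libraries), no trend, SkMel28 alone, a replicate block and each library left out. A group with at most 3 reads in every library was taken as at the floor. Floors cover counting error only. The labels do not say whether libraries of a group came from separate cultures, so p-values measure the spread between these libraries.

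Classes and lists were written with earlier results of these data known, and their counts are descriptions without a test. Symbol patterns of integrins, the proteasome, tubulins, translation factors, the V-ATPase, the respiratory chain and histones were tightened after the table was seen, to leave out antisense genes, pseudogenes and unrelated proteins. Counts without genes whose change was known beforehand were also added then. They are not given for the lineage factors, V-ATPase, fatty acid synthesis, G1 regulators, guidance genes, tetraspanins, ion channels and zinc finger genes. Each of these classes held 1 such gene. Named genes were MITF and, in each class with at least 3 called members, the called gene with the smallest p in each direction, where the group with more had a mean of 10 or above and the groups did not overlap. This gave 91 genes, of which 1 is not reported here. All genes beyond these were named after their values were seen. Symbols were matched to GENCODE release 44 (12333 of 12616), by RefSeq synonyms where needed, and 23 of the 91 overlap another listed gene.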

Additional observations from a re-analysis of the deposited data

Results flagged for a closer look

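Of the 91 named genes, 31 are put forward because their change with Dox differed between SkMel28 and MeWo (limma, SkMel28 change minus MeWo change, adjusted p under 0.05, n = 3 libraries per group). The named genes other than MITF were picked by their change in SkMel28, and this test uses the same libraries. The choice therefore favours genes with the larger change in SkMel28. Over all genes the difference was called for 894 of 12616 (7.09%), and among those called in SkMel28 for 359 of 1378. The differences on the log2 scale stand in parentheses. Genes that rose in SkMel28, with a smaller or an opposite fitted change in MeWo, were GPNMB (0.64), KIF13A (1.21), PDHX (1.10), ELOVL2 (1.26), B4GALT6 (1.40), SLC38A2 (1.15), DNAJA4 (1.23), SLC39A13 (1.06), MXI1 (1.08), JUN (1.29), TLE1 (1.24), TGFBR2 (1.95), ANGPTL7 (4.70), SYNM (1.51), GBP2 (2.10) and LINC00326 (1.45). Genes that fell in SkMel28, with a smaller or an opposite fitted change in MeWo, were ATG4B (−1.10), PRPS2 (−0.80), BAG5 (−0.81), POLE4 (−0.96), BIRC7 (−1.35), GDF15 (−1.85), NT5E (−1.01), SEMA5A (−1.68), ITGA7 (−1.40), ACTN4 (−0.93), HLA-C (−1.30) and ZNF703 (−1.39). The change was larger in MeWo in the same direction for PLK2 (−1.71), S100B (−0.82) and LINC00520 (1.0). ELOVL2 is listed at 0 in all 6 MeWo libraries, so its difference is its change in SkMel28 alone.

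The fitted changes had opposite signs, with a MeWo change of at least 0.3 in size, for ATG4B (−0.71 in SkMel28, 0.38 in MeWo), PDHX (0.78 in SkMel28, −0.32 in MeWo), B4GALT6 (0.91 in SkMel28, −0.48 in MeWo), GDF15 (−0.58 in SkMel28, 1.27 in MeWo), SEMA5A (−1.30 in SkMel28, 0.39 in MeWo) and ACTN4 (−0.58 in SkMel28, 0.35 in MeWo). The difference between lines cannot be told apart from that between their media. No group holds the 4 libraries needed to test for a library that stands apart.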

How the results depend on the processing

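The number of genes called (1378) was 1419 with edgeR and 1298 with DESeq2 on the recovered reads, and 544 of the genes were called in every alternative, of 23, that gave them a value. Scaling to the spike-ins left 394 genes higher, of 742, and 1519 differences between lines, of 894. A pseudocount of 5 left 247 calls at 2-fold, of 540. Without the mean-variance trend 554 differences between lines were called and MITF (−0.49) was not. Leaving out each library in turn gave 784 to 2042 called genes, 430 to 1039 higher, 354 to 1003 lower, 453 to 563 at 2-fold and 449 to 3115 differences between lines, with MITF at −0.54 to −0.43. The lowest count of called genes was without SkMel28 Dox library 2 and the highest without MeWo Dox library 1, and any 1 SkMel28 library left out gave 784 to 1043, with fewer samples in the fit. A replicate block, with same-numbered libraries as pairs, gave 1070 called genes. The numbers were not taken as pairs, since the rule asked for over 0.1 in every same-numbered pair. Deviations of same-numbered control and Dox libraries correlated at −0.10, 0.11 and 0.27 over genes, and not every library correlated best with its own number. With deviations from means of 3 libraries this check cannot exclude pairing. Of the other named genes 69 of 90 kept their call throughout and none changed sign. For the 21 classes with a median of at least 0.2 in size, all 483 recomputed medians kept their sign. Counts of called members within classes stayed within 1.5 times in 1173 of 1426 recomputations. How depth limits calls among genes of few reads was not tested. Where no other cause is named, the cause was not tested.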

Other observations

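Genes outside the classes held 926 of the called genes. The following were chosen after their values were seen, among those with the smallest p and a call under every alternative that gave a value. RCAN1, an inhibitor of calcineurin, rose from 85.5, 94.9 and 92 to 421, 454 and 409 (log2 change 2.22, SE 0.11, adjusted p 1.83e-09), and IRS2, an insulin receptor substrate, from 191, 193 and 229.5 to 429, 448 and 447 (log2 change 1.11, SE 0.11, adjusted p 3.17e-06). NFATC2, a factor that calcineurin activates, rose from 169.6, 182 and 176 to 652, 619.6 and 662 (log2 change 1.87, SE 0.19, adjusted p 4.03e-06). TXNIP, the thioredoxin-binding arrestin, rose from 138, 148 and 141 to 452, 446 and 379.5 (log2 change 1.57, SE 0.12, adjusted p 2.5e-07). LOXL3, a lysyl oxidase that crosslinks matrix, rose from 39.8, 52 and 32.2 to 387, 362 and 324 (log2 change 3.11, SE 0.20, adjusted p 5.89e-08). PTPRZ1, a receptor phosphatase, rose from 4.73, 3.49 and 6.51 to 46.9, 47.1 and 44.7 (log2 change 3.03, SE 0.28, adjusted p 1.68e-06), and MAP2, a microtubule-associated protein, from 38.1, 36.5 and 36.4 to 129, 135 and 134 (log2 change 1.82, SE 0.17, adjusted p 2.12e-06).

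Among falls, CAPG, an actin-capping protein, went from 7917, 6693 and 7448 to 2315, 2277 and 3463 (log2 change −1.48, SE 0.17, adjusted p 1.75e-05), and PLA1A, a phospholipase, from 638, 772 and 798 to 157, 150.4 and 152 (log2 change −2.25, SE 0.25, adjusted p 1.41e-05). TRIM63 and FBXO32 code for ubiquitin ligases known from muscle atrophy and both fell, TRIM63 from 354, 346 and 412 to 109, 95.3 and 128 (log2 change −1.74, SE 0.15, adjusted p 1.08e-06) and FBXO32 from 236, 259 and 269 to 129, 128 and 128 (log2 change −0.98, SE 0.12, adjusted p 3.95e-05). PLIN2, a coat protein of lipid droplets, fell from 503, 462 and 546 to 263, 283 and 268 (log2 change −0.89, SE 0.11, adjusted p 3.41e-05). UCN2, a peptide of the corticotropin-releasing family, fell from 120.0, 126 and 146 to 33, 32.1 and 37.2 (log2 change −1.90, SE 0.14, adjusted p 2.05e-07). In all of these genes the Dox libraries lay apart from the controls, as in 1366 of the 1378 called genes.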
